A study of Mus musculus with 18 samples.

Results

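The 35 genes described here are type I interferon-stimulated genes, chosen by name as the rows of the deposited expression table that carry their symbols. All 35 were found among 23953 gene rows, and all 35 were among the 11099 genes that reached 1 RPKM (reads scaled to transcript length and library size) in at least 3 of 18 libraries. The choice of names used no measured value of the table, although it was made with earlier results of these data known.

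The libraries come from sorted naive CD4 T cells of C57BL/6 mice, CD4+ and CD25-, in 6 genotypes of 3 libraries each. Cluster Tg mice over-expressed the whole microRNA cluster that encodes miR-23, miR-27 and miR-24 in T cells. The miR-27 Tg, miR-24 Tg and miR-23 Tg mice over-expressed a single family of the cluster in T cells, and T cells of DKO mice lacked the a and the b copy of the cluster. Wild-type mice (WT) were the common control. The sources used here do not give the promoter or Cre behind the T cell restriction, the age of the mice, or whether each library is a separate animal. The p-values therefore reflect how far libraries of a genotype differ, which may partly be technical. Values are listed in the order of replicates 1, 2 and 3, and for miR-23 Tg as replicate 1 followed by columns 3 and 4 of the table, which share a single header. In RNA of sorted cells, more RNA per cell and a larger share of expressing cells cannot be told apart.

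MicroRNAs are short RNAs that pair with mRNAs mainly through their seed and lower the level or translation of those mRNAs. The seed sequences of the transgenic families are shown because they separate the genotypes compared. RefSeq (GRCm38.p6) gives these mature sequences, 5′ to 3′, with the seed, bases 2 to 8, in capitals.
mmu-miR-23a-3p: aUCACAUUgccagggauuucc
mmu-miR-27a-3p: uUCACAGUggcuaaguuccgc
mmu-miR-24-3p: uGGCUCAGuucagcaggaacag
The table's own hairpin rows were high in the transgenics that carry them. Mir27a spanned 35501 to 172309 RPKM in cluster Tg and 27980.5 to 234933 RPKM in miR-27 Tg, against 95.6 to 194 RPKM in WT. Mir27a spanned 0 to 39.5 RPKM in DKO, below every WT library, and up to 588 RPKM in miR-24 Tg. Mir23a spanned 64024 to 74236 RPKM in miR-23 Tg, against 0 to 279.5 RPKM in WT, and its 0 to 76.1 RPKM in DKO overlapped WT. Mir24-2 spanned 13888 to 49237 RPKM in miR-24 Tg, against 18.9 to 46.0 RPKM in WT. The alleles of DKO are not described further in the sources used here, and reads shared by the a and b copies may have been counted for either.

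Type I interferons bind a receptor of Ifnar1 and Ifnar2, and the kinases on its tails activate STAT proteins, among them Stat2, which joins Irf9 in a complex that enters the nucleus. That complex switches on genes that carry an interferon-stimulated response element in their promoters. Their products sense viral RNA, destroy or trap it, block viral entry and budding, and, as with Irf7 and Usp18, strengthen or damp the pathway itself. Naive T cells express many of these genes at a resting level.

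In cluster Tg libraries, 21 of the 35 genes rose against WT and 0 fell, with a median log2 fold change of 0.95 on the log2(RPKM + 1) scale, on which every fold change here is given. Over all genes tested, 5.63% rose and 2.85% fell in that comparison by the same criterion, an adjusted p under 0.05 (limma, Benjamini-Hochberg over all genes), which is what called means here. In miR-27 Tg, 23 rose and 0 fell with a median of 1.05, where 5.77% of all genes rose and 3.18% fell. In miR-24 Tg, 0 of the 35 were called, where 2.32% of all genes rose and 1.26% fell; the median was 0.11, and 4 genes had an unadjusted p under 0.05 in limma, 2 of them higher, where 14.4% of all genes passed. In miR-23 Tg, 0 were called, where 0.00901% of all genes rose and 0.036% fell; the median was -0.14, and 1 gene, Dhx58, had an unadjusted p under 0.05 and was lower, where 7.63% of all genes passed. In DKO, 0 were called, as were 0% of all genes in either direction; the median was 0.49, and 15 of the 35 had an unadjusted p under 0.05, all 15 higher, where 81 of 11099 genes (0.73%) did. All 5 comparisons share the 3 WT libraries, so they are not independent of each other. The median over all genes lay between 0 and 0.03 in each of them.

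**Figure D1:**
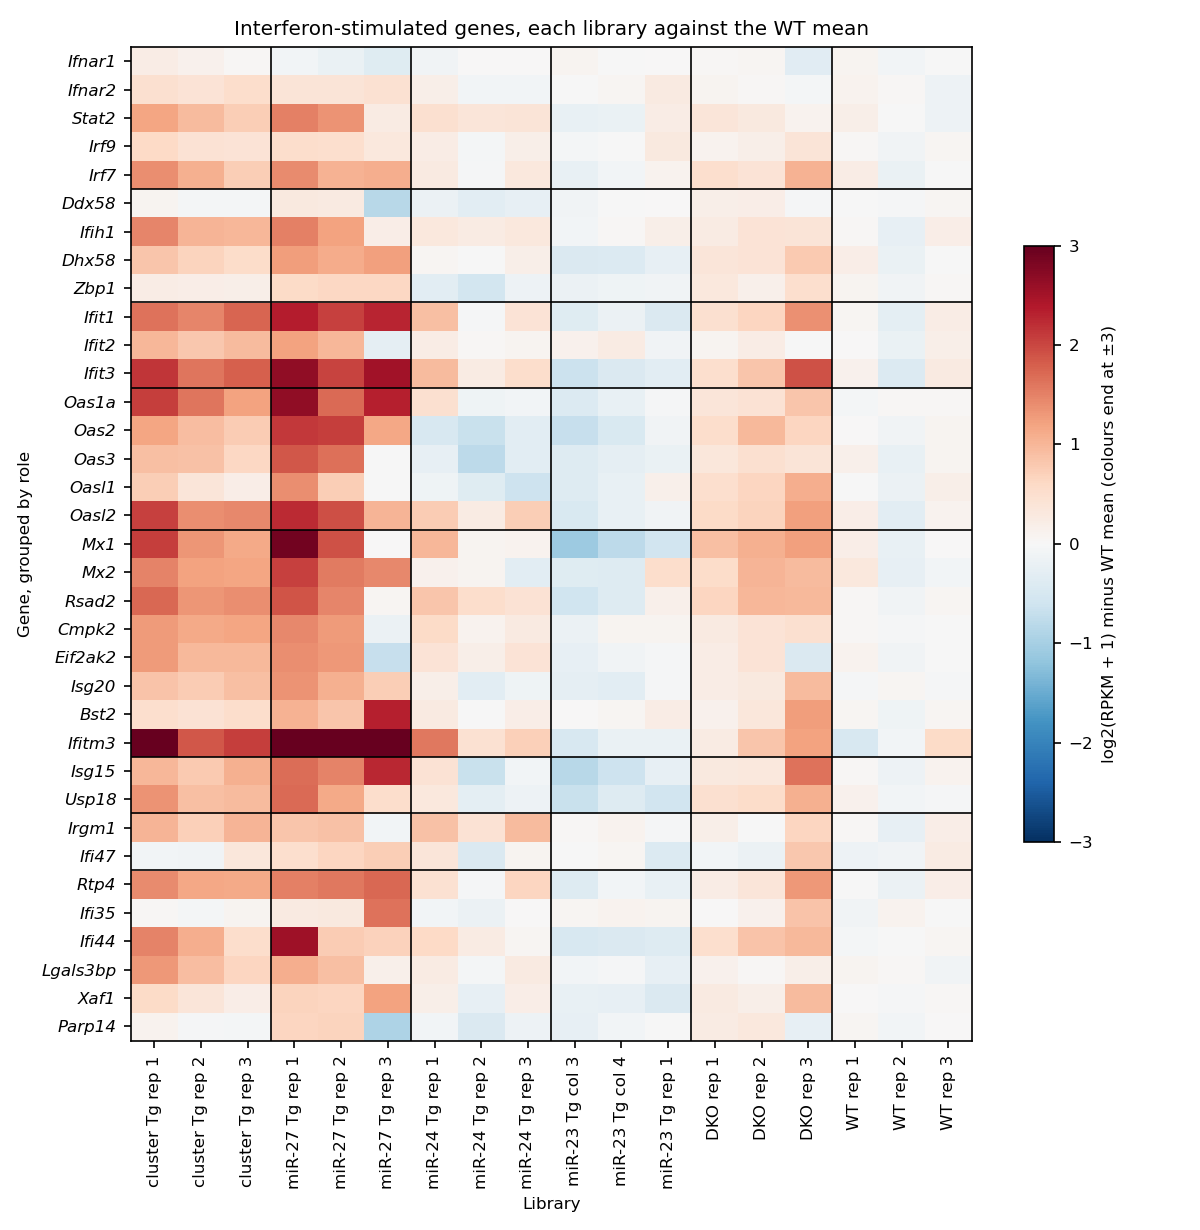
Difference of each library from the WT mean on the log2(RPKM + 1) scale, for the 35 genes (rows, grouped by role) in the 18 libraries (columns), with colours that end at ±3. Red fills most rows of the 3 cluster Tg and 3 miR-27 Tg libraries, paler red fills most rows of DKO, and miR-24 Tg and miR-23 Tg show both colours.

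Library by library, the 35 genes averaged 1.10, 0.82 and 0.80 above the WT mean in cluster Tg and 1.46, 1.18 and 0.77 above it in miR-27 Tg. The average difference was 0.33, -0.07 and 0.14 in miR-24 Tg, -0.08, -0.30 and -0.18 in miR-23 Tg, and 0.31, 0.43 and 0.71 in DKO. The WT libraries lay at 0.05, -0.12 and 0.07. Every library of cluster Tg, miR-27 Tg and DKO was therefore above every WT library on this average, 1 miR-24 Tg library lay within the WT range and the other two above it, and 1 miR-23 Tg library lay within it and the other two below. All libraries lay above the whole WT range in 30 of the 35 genes in cluster Tg, where 22.1% of all genes did so, and in 24 genes in miR-27 Tg, where 15% did. In DKO this held for 23 genes against 2.44% of all genes, in miR-24 Tg for 7 genes against 17.5%, and in miR-23 Tg for 0 genes against 15.2%. The count in miR-24 Tg was 16 without its replicate 2 (25% of all genes), 11 without WT replicate 3 (23.3%) and 3 under quantile normalisation (13.1%). All libraries lay below the whole WT range in 0 of the 35 genes in cluster Tg and DKO, where 20.6% and 2.52% of all genes did so. The same count was 1 in miR-27 Tg against 12.3% of all genes, 5 in miR-24 Tg against 16%, and 7 in miR-23 Tg against 13.6%.

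The receptor chains and the factors downstream of them came first in the pathway. Of the 5 genes in this group, 4 rose in cluster Tg, as did 4 in miR-27 Tg. Ifnar2 had 47.4, 45.3 and 48.7 RPKM in cluster Tg and 44.1, 44.3 and 46.6 RPKM in miR-27 Tg. For Ifnar2 they were 37.96, 31.9 and 31.7 RPKM in miR-24 Tg, 40.6, 33.3 and 34.9 in miR-23 Tg, 35.4, 34.6 and 32.5 in DKO and 36.5, 34.5 and 30.3 in WT. All libraries of cluster Tg and miR-27 Tg lay above those of the other 4 genotypes. The log2 fold change of Ifnar2 was 0.47 (SE 0.10, adjusted p = 0.00914) in cluster Tg and 0.41 (SE 0.10, adjusted p = 0.0215) in miR-27 Tg. Both calls were lost without WT replicate 3, and that in miR-27 Tg also without WT replicate 2. Ifnar1 measured 43.2, 40.8 and 37.7 RPKM in cluster Tg and 34.7, 31.9 and 28.7 RPKM in miR-27 Tg. Ifnar1 had 34.3, 37.1 and 37.4 RPKM in miR-24 Tg, 37.1, 38.9 and 36.6 in miR-23 Tg, 37.9, 38.8 and 29.1 in DKO and 39.4, 35.1 and 36.5 in WT. The receptor's other chain overlapped WT in cluster Tg, and all its miR-27 Tg values lay below WT. Its log2 fold change was 0.13 (adjusted p = 0.631) in cluster Tg and -0.22 (adjusted p = 0.240) in miR-27 Tg.

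Stat2 stood at 65.4, 55.1 and 47.6 RPKM in cluster Tg and 81.9, 72.7 and 33.5 RPKM in miR-27 Tg. In the others Stat2 had 39.4, 36.2 and 36.8 RPKM in miR-24 Tg, 32.7, 23.8 and 24.5 in miR-23 Tg, 36.2, 34.6 and 30.5 in DKO and 31.7, 27.7 and 25.2 in WT. Stat2, which gives the complex its activation domain, was above the whole WT range in every library of cluster Tg and miR-27 Tg, and its miR-27 Tg replicate 3 stood far below the other two. Its log2 fold change was 0.96 (SE 0.25, adjusted p = 0.0298) in cluster Tg and 1.03 (SE 0.25, adjusted p = 0.0201) in miR-27 Tg. Irf9 reached 121, 108 and 105 RPKM in cluster Tg and 116, 113 and 99.98 RPKM in miR-27 Tg. The Irf9 values were 92.5, 76.9 and 89.9 RPKM in miR-24 Tg, 97.4, 76.8 and 78.5 in miR-23 Tg, 86.2, 89.6 and 104 in DKO and 82.02, 74.2 and 83.1 in WT. Irf9, which gives that complex its DNA contact, rose by 0.48 (SE 0.12, adjusted p = 0.0242) in cluster Tg and 0.45 (SE 0.12, adjusted p = 0.0315) in miR-27 Tg. The DKO values of Irf9 were also above every WT value, by 0.22 on the log2 scale (unadjusted p = 0.089, adjusted p = 1). Calls of Stat2 and Irf9 in cluster Tg were lost without cluster Tg replicate 1 or 2 or without any 1 of the 3 WT libraries. Irf7 showed 190.5, 152 and 121 RPKM in cluster Tg and 193, 151 and 154 RPKM in miR-27 Tg. For Irf7 they were 87.04, 70.4 and 90.1 RPKM in miR-24 Tg, 77.3, 61.99 and 68.8 in miR-23 Tg, 103, 96.6 and 150.3 in DKO and 84.1, 62.5 and 71.9 in WT. Irf7, which amplifies interferon production and response, rose by 1.06 (SE 0.20, adjusted p = 0.00402) in cluster Tg and 1.18 (SE 0.20, adjusted p = 0.00249) in miR-27 Tg. In DKO its log2 fold change was 0.65 (SE 0.20, adjusted p = 1), with all 3 libraries above WT.

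**Figure D2:**
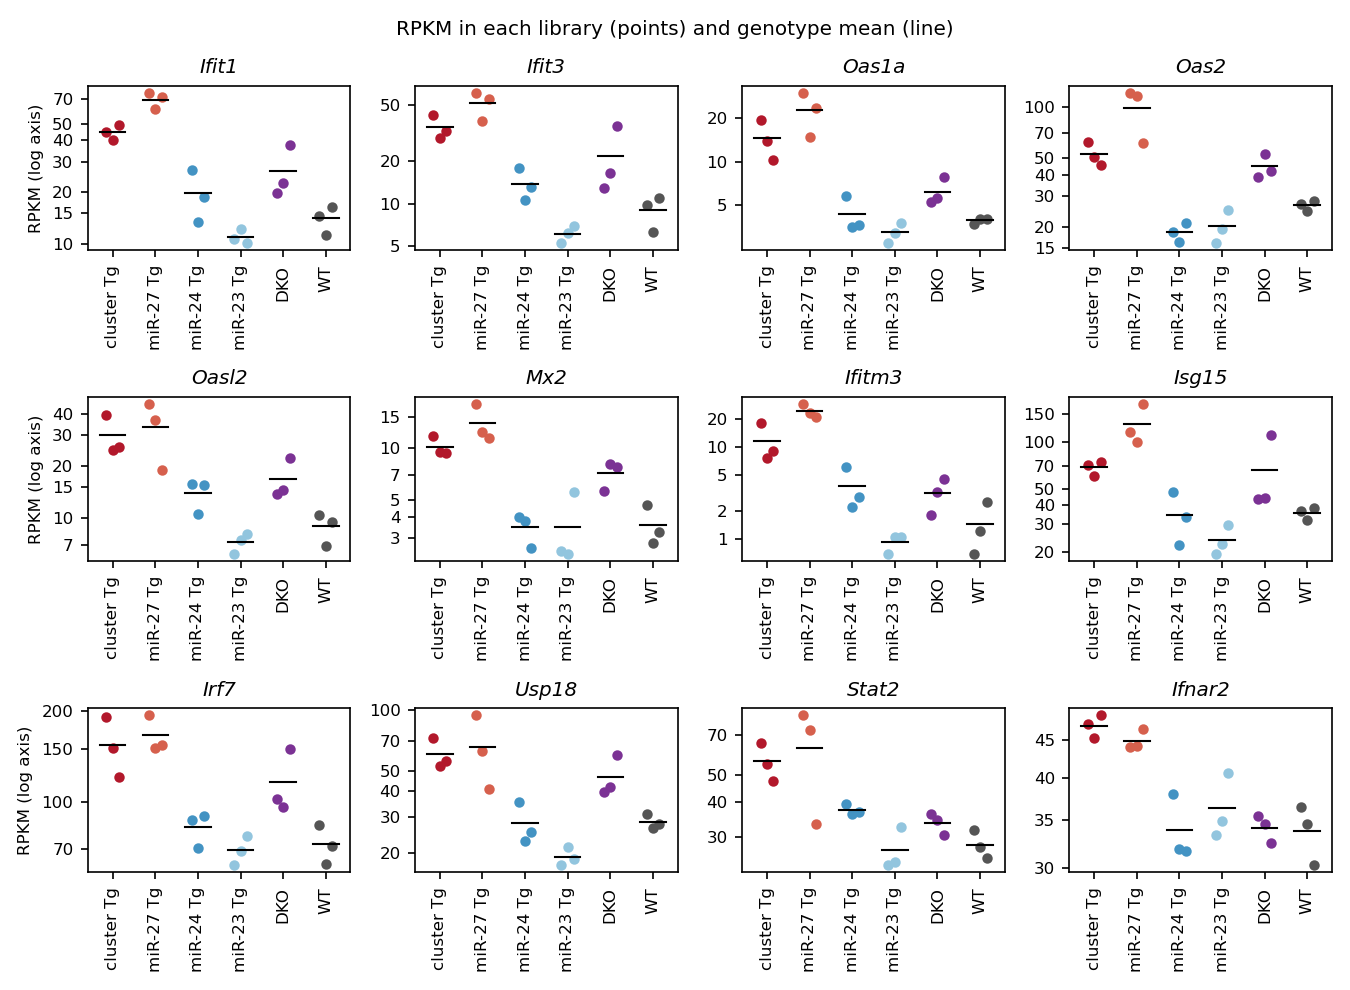
RPKM (log axis) of 12 of the genes in each library (points), with the genotype mean as a line. For Ifit1 the cluster Tg and miR-27 Tg points lie between 40.3 and 75.1 RPKM, above all WT points, which end at 16.3 RPKM, and for Ifnar2 the DKO points lie within the WT range.

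Sensors of foreign nucleic acid formed the next group of 4, of which 2 rose in cluster Tg and 3 rose in miR-27 Tg. Dhx58 had 25.3, 22.4 and 20.8 RPKM in cluster Tg and 34.2, 30.8 and 33.7 RPKM in miR-27 Tg. Dhx58 had 14.4, 13.8 and 15.6 RPKM in miR-24 Tg, 11.5, 9.86 and 10.2 in miR-23 Tg, 17.95, 18.8 and 24.5 in DKO and 15.96, 11.9 and 13.7 in WT. Dhx58, the cytoplasmic RNA helicase LGP2, separated all cluster Tg, miR-27 Tg and DKO libraries from WT, and all miR-23 Tg libraries lay below WT. Its log2 fold change was 0.68 (SE 0.13, adjusted p = 0.00406) in cluster Tg, 1.20 (SE 0.13, adjusted p = 9.46e-05) in miR-27 Tg, -0.36 (adjusted p = 0.455) in miR-23 Tg and 0.52 (unadjusted p = 0.0011, adjusted p = 1) in DKO. Dhx58 had the largest F of the 35 over the 6 genotypes. The related helicase Ifih1 (MDA5) averaged 19.9 ± 3.95 RPKM in cluster Tg and 18.6 ± 8.05 RPKM in miR-27 Tg, against 8.36 ± 1.39 RPKM in WT (SD, n = 3 each), and rose in both.

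Zbp1 measured 145, 144 and 142 RPKM in cluster Tg and 187, 193 and 191 RPKM in miR-27 Tg. In the others Zbp1 had 99.6, 84.2 and 112 RPKM in miR-24 Tg, 116, 109 and 114 in miR-23 Tg, 155, 138 and 178 in DKO and 132, 115 and 127 in WT. Zbp1, a sensor of Z-form nucleic acid that can trigger cell death, rose by 0.61 (SE 0.12, adjusted p = 0.00525) in miR-27 Tg, and its 3 values there were the highest of the 18. In cluster Tg all 3 values of Zbp1 lay above WT, at a log2 fold change of 0.20 (adjusted p = 0.392). All 3 lay below WT in miR-24 Tg, at -0.34 (adjusted p = 0.138). Ddx58 (RIG-I), the remaining sensor, averaged 49.9 ± 2.66 RPKM in cluster Tg and 50.3 ± 19.3 RPKM in miR-27 Tg, against 50.4 ± 1.70 RPKM in WT, with log2 fold changes of -0.01 and -0.09.

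The IFIT proteins bind viral RNA and stop its translation. All 3 of their genes rose in cluster Tg, and 2 of the 3 rose in miR-27 Tg. Ifit1 stood at 44.7, 40.3 and 49.03 RPKM in cluster Tg and 75.1, 60.8 and 71.5 RPKM in miR-27 Tg. The Ifit1 values were 26.95, 13.4 and 18.8 RPKM in miR-24 Tg, 10.1, 10.6 and 12.1 in miR-23 Tg, 19.8, 22.4 and 37.6 in DKO and 14.6, 11.2 and 16.3 in WT. No value of cluster Tg or miR-27 Tg overlapped any other genotype, the 3 DKO values were above WT, and those of miR-23 Tg lay around the low end of WT. The log2 fold change of Ifit1 was 1.61 (SE 0.24, adjusted p = 0.000908) in cluster Tg, 2.23 (SE 0.24, adjusted p = 0.000105) in miR-27 Tg and 0.83 (unadjusted p = 0.0039, adjusted p = 1) in DKO. Ifit3 reached 42.4, 29.1 and 33.03 RPKM in cluster Tg and 60.7, 38.9 and 55.2 RPKM in miR-27 Tg. For Ifit3 they were 17.9, 10.6 and 13.1 RPKM in miR-24 Tg, 6.92, 5.27 and 6.25 in miR-23 Tg, 12.97, 16.5 and 35.8 in DKO and 9.82, 6.35 and 10.9 in WT. Ifit3, which steadies Ifit1 in a complex, rose by 1.85 (SE 0.32, adjusted p = 0.00213) in cluster Tg and 2.40 (SE 0.32, adjusted p = 0.000476) in miR-27 Tg. In DKO its log2 fold change of 1.08 was the largest of the 35 (SE 0.32, adjusted p = 1), and DKO replicate 3 stood far above the other two. Ifit2 averaged 56.3 ± 4.09 RPKM in cluster Tg, against 29.3 ± 3.69 RPKM in WT, a change of 0.92 (adjusted p = 0.0489) whose call was lost when any 1 of the 3 cluster Tg or 3 WT libraries was left out. In miR-27 Tg, Ifit2 had 68.4, 59.1 and 24.2 RPKM. Its log2 fold change there was 0.65 (adjusted p = 0.160), or 1.10 without replicate 3.

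Of the 5 oligoadenylate synthetase genes, whose products make the messenger that turns on RNase L or resemble those enzymes, 3 rose in cluster Tg and 4 rose in miR-27 Tg. Oas1a showed 19.4, 13.9 and 10.3 RPKM in cluster Tg and 29.9, 14.9 and 23.6 RPKM in miR-27 Tg. Oas1a had 5.77, 3.48 and 3.58 RPKM in miR-24 Tg, 3.74, 2.695 and 3.19 in miR-23 Tg, 5.23, 5.55 and 7.74 in DKO and 3.66, 3.98 and 3.99 in WT. Oas1a was low in WT and separated cluster Tg and miR-27 Tg from all other libraries. It rose by 1.63 (SE 0.25, adjusted p = 0.00115) in cluster Tg and 2.24 (SE 0.25, adjusted p = 0.000155) in miR-27 Tg. Oas2 had 62.4, 51.2 and 45.9 RPKM in cluster Tg and 119.6, 116 and 61.3 RPKM in miR-27 Tg. In the others Oas2 had 18.7, 16.3 and 21.1 RPKM in miR-24 Tg, 24.9, 16.05 and 19.3 in miR-23 Tg, 39.01, 53.2 and 42.4 in DKO and 27.1, 24.6 and 28.4 in WT. In Oas2 the 3 DKO libraries were above WT too, and those of miR-24 Tg were all below it. The log2 fold change of Oas2 was 0.96 (SE 0.23, adjusted p = 0.0187) in cluster Tg, 1.79 (SE 0.23, adjusted p = 0.000428) in miR-27 Tg, -0.50 (adjusted p = 0.346) in miR-24 Tg and 0.72 (adjusted p = 1) in DKO.

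Oasl2 measured 39.5, 24.6 and 25.7 RPKM in cluster Tg and 45.2, 36.6 and 19.00 RPKM in miR-27 Tg. The Oasl2 values were 15.6, 10.5 and 15.4 RPKM in miR-24 Tg, 8.08, 6.17 and 7.41 in miR-23 Tg, 13.7, 14.6 and 22.04 in DKO and 10.3, 6.904 and 9.49 in WT. Oasl2, an OAS-like protein, rose by 1.63 (SE 0.29, adjusted p = 0.00302) in cluster Tg and 1.74 (SE 0.29, adjusted p = 0.00241) in miR-27 Tg. All DKO and all miR-24 Tg values of Oasl2 were above WT, at 0.83 (adjusted p = 1) and 0.58 (adjusted p = 0.405). Oas3 averaged 22.2 ± 2.34 RPKM in cluster Tg and 33.4 ± 18.6 RPKM in miR-27 Tg, against 12.3 ± 1.80 RPKM in WT, and was called in miR-27 Tg (adjusted p = 0.0488) but not in cluster Tg (adjusted p = 0.199). Leaving out any 1 WT library, or miR-27 Tg replicate 1 or 2, ended the call of Oas3. Oasl1 averaged 12.5 ± 2.60 RPKM in cluster Tg, 16.5 ± 8.22 RPKM in miR-27 Tg and 15.9 ± 3.74 RPKM in DKO, against 8.95 ± 1.17 RPKM in WT, and was not called in any of these comparisons.

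Another 8 genes were grouped because their protein families can act on the virus or on its replication, not for activity shown in these mice. Of the 8, 5 rose in cluster Tg and 4 rose in miR-27 Tg. Ifitm3 stood at 18.01, 7.56 and 8.99 RPKM in cluster Tg and 28.6, 23.05 and 20.8 RPKM in miR-27 Tg. For Ifitm3 they were 6.05, 2.23 and 2.88 RPKM in miR-24 Tg, 1.07, 0.697 and 1.06 in miR-23 Tg, 1.82, 3.24 and 4.46 in DKO and 0.694, 1.23 and 2.502 in WT. Ifitm3, which hinders fusion of viruses with the cell's membranes, had the largest log2 fold change of the 35 in both comparisons, 2.31 (SE 0.36, adjusted p = 0.00111) in cluster Tg and 3.40 (SE 0.36, adjusted p = 8.53e-05) in miR-27 Tg. It was the 1 gene of the 35 below 1 RPKM in a WT library. Mx2 reached 11.7, 9.48 and 9.29 RPKM in cluster Tg and 17.8, 12.3 and 11.4 RPKM in miR-27 Tg. Mx2 had 3.97, 3.804 and 2.66 RPKM in miR-24 Tg, 5.56, 2.53 and 2.44 in miR-23 Tg, 5.63, 8.11 and 7.74 in DKO and 4.67, 2.81 and 3.29 in WT. Mx2, a dynamin-like GTPase, rose by 1.29 (SE 0.25, adjusted p = 0.00514) in cluster Tg and 1.69 (SE 0.25, adjusted p = 0.00107) in miR-27 Tg, and all DKO values lay above WT.

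Isg20 showed 42.4, 40.1 and 44.1 RPKM in cluster Tg and 60.5, 49.4 and 39.4 RPKM in miR-27 Tg. In the others Isg20 had 26.4, 18.3 and 21.2 RPKM in miR-24 Tg, 22.4, 19.1 and 18.5 in miR-23 Tg, 27.03, 28.7 and 45.6 in DKO and 22.7, 24.2 and 22.6 in WT. Isg20, an exonuclease that degrades RNA, rose by 0.84 (SE 0.19, adjusted p = 0.0134) in cluster Tg and 1.05 (SE 0.19, adjusted p = 0.00407) in miR-27 Tg. The 3 DKO values of Isg20 were above WT as well, at 0.49 (adjusted p = 1). Rsad2 (viperin), which makes a chain-terminating nucleotide, and the mitochondrial nucleotide kinase Cmpk2 rose in cluster Tg, by 1.48 (adjusted p = 0.0151) and 1.20 (adjusted p = 0.0235). In miR-27 Tg their log2 fold changes were 1.14 (adjusted p = 0.0555) and 0.84 (adjusted p = 0.0997), or 1.68 and 1.36 without replicate 3. Bst2 (tetherin), which holds budding virions on the cell, averaged 135 ± 4.12 RPKM in cluster Tg and 285 ± 173 RPKM in miR-27 Tg, against 96.3 ± 6.98 RPKM in WT. Bst2 was called in miR-27 Tg at 1.40 (adjusted p = 0.0156), or 0.93 without replicate 3, but not in cluster Tg. Mx1 and the kinase Eif2ak2 (PKR) were called in neither comparison with WT, at 1.51 and 1.07 in cluster Tg and 1.60 and 0.66 in miR-27 Tg, or 2.40 and 1.34 there without replicate 3.

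Usp18 had 73.1, 53.3 and 55.9 RPKM in cluster Tg and 93.7, 63.03 and 41.01 RPKM in miR-27 Tg. The Usp18 values were 35.4, 22.9 and 25.3 RPKM in miR-24 Tg, 18.7, 17.5 and 21.5 in miR-23 Tg, 39.7, 42.04 and 59.9 in DKO and 30.9, 26.5 and 27.7 in WT. Usp18, which removes ISG15 from proteins and damps signalling at the receptor, rose by 1.06 (SE 0.25, adjusted p = 0.0175) in cluster Tg and 1.11 (SE 0.25, adjusted p = 0.0142) in miR-27 Tg. Its DKO values were all above WT (0.69, adjusted p = 1), while the miR-23 Tg values were all below WT (-0.54, adjusted p = 0.659). The ubiquitin-like modifier Isg15 averaged 69.1 ± 7.03 RPKM in cluster Tg and 129.7 ± 38.5 RPKM in miR-27 Tg, against 35.4 ± 3.11 RPKM in WT. Isg15 rose in miR-27 Tg, by 1.81 (adjusted p = 0.00472), or 1.58 without replicate 3, and was at 0.94 (adjusted p = 0.113) in cluster Tg. Rtp4 measured 70.99, 59.9 and 58.3 RPKM in cluster Tg and 76.4, 79.5 and 88.9 RPKM in miR-27 Tg. For Rtp4 they were 36.4, 25.4 and 41.2 RPKM in miR-24 Tg, 22.1, 19.7 and 24.5 in miR-23 Tg, 30.6, 33.6 and 66.2 in DKO and 25.6, 23.05 and 29.96 in WT. Rtp4, a zinc-finger protein that restrains RNA viruses, rose by 1.24 (SE 0.24, adjusted p = 0.00514) in cluster Tg and 1.61 (SE 0.24, adjusted p = 0.00109) in miR-27 Tg.

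Among the genes left, Irgm1, an immunity-related GTPase, rose in cluster Tg (0.92, adjusted p = 0.0291). In miR-27 Tg Irgm1 was at 0.54 (adjusted p = 0.185), or 0.84 without replicate 3. The related Ifi47 had 192 ± 34.8 RPKM in cluster Tg and 283 ± 23.035 RPKM in miR-27 Tg, against 184 ± 27.9 RPKM in WT, and was not called. The secreted glycoprotein Lgals3bp rose by 0.95 (adjusted p = 0.0109) in cluster Tg and 0.71 (adjusted p = 0.0488) in miR-27 Tg. Ifi44 rose by 1.33 (adjusted p = 0.0434) and the apoptosis factor Xaf1 by 0.84 (adjusted p = 0.0191) in miR-27 Tg, while in cluster Tg their adjusted p was 0.122 and 0.345. Without miR-27 Tg replicate 3, Ifi44 was at 1.64 and Xaf1 at 0.65 in miR-27 Tg. Ifi35 and the ADP-ribosyltransferase Parp14 were called in no comparison with WT, at 0.03 and 0.01 in cluster Tg and 0.74 and 0.12 in miR-27 Tg, or 0.29 and 0.65 there without replicate 3. Over the 6 genotypes, the F test called 28 of the 35, where 19% of all genes were called. The 7 not called were Ifnar1, Ddx58, Ifit2, Eif2ak2, Ifi35, Ifi47 and Parp14.

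**Figure D3:**
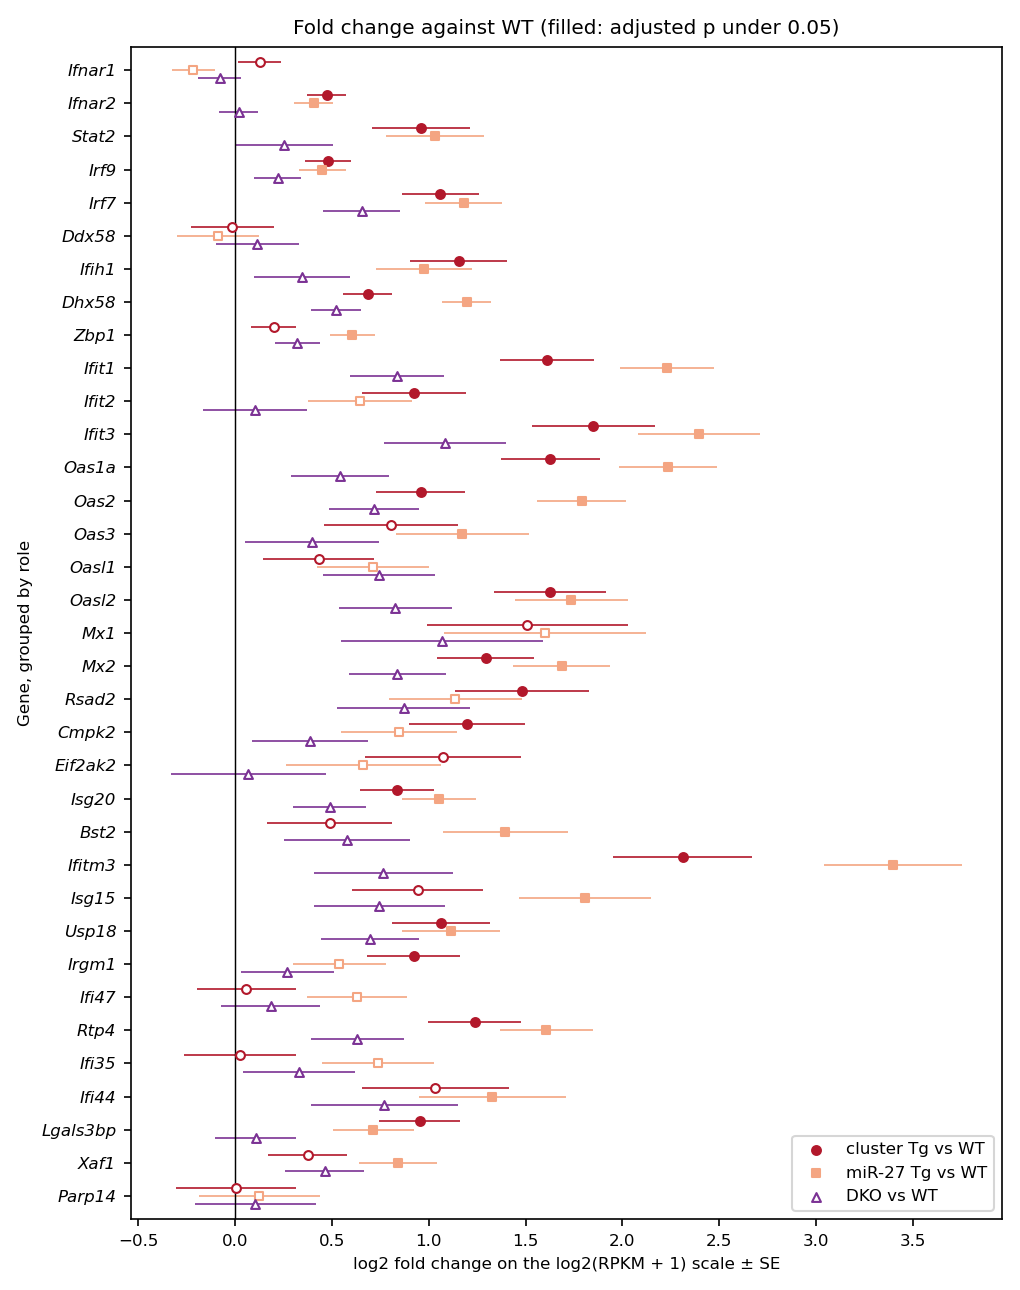
Log2 fold change against WT ± SE of each of the 35 genes (rows, grouped by role) in cluster Tg, miR-27 Tg and DKO, on the log2(RPKM + 1) scale, with filled points at an adjusted p under 0.05. Points of cluster Tg and miR-27 Tg lie right of 0 for most genes and reach 2.31 and 3.40 at Ifitm3, and DKO points reach 1.08 at Ifit3.

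The genotypes were also set against each other. Between miR-27 Tg and miR-24 Tg, a comparison added after the values were seen, 19 of the 35 genes were higher in miR-27 Tg and 0 lower, with a median of 1.00, where 6.78% of all genes were higher and 6.2% lower. All 19 calls were lost with only the 6 libraries compared in the fit, and leaving out 1 of those 6 gave 14 to 30. The largest of these differences were Ifitm3 at 2.49, Oas2 at 2.29 and Oas1a at 2.15. Between cluster Tg and miR-24 Tg, 10 genes were higher in cluster Tg (Ifit1, Oas1a, Oas2, Mx2, Irf7, Isg20, Usp18, Dhx58, Zbp1 and Ifnar2), and 0 lower, with a median of 0.82, where 1.31% of all genes were higher and 0.91% lower. That count was 2 without cluster Tg replicate 1, 5 without cluster Tg replicate 3, and 3 without cluster Tg replicate 2, miR-24 Tg replicate 2 or miR-24 Tg replicate 3. Between cluster Tg and miR-23 Tg, 24 were higher in cluster Tg, and 0 lower, with a median of 1.08, where 6.54% of all genes were higher and 3.79% lower. Leaving out cluster Tg replicate 1 brought that count to 15.

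Between cluster Tg and miR-27 Tg, Dhx58 was the 1 gene called, lower in cluster Tg by a log2 of 0.51 (SE 0.13, adjusted p = 0.0411), where 1.81% of all genes were lower and 1.98% higher; no call remained when any library of cluster Tg, or replicate 1 or 2 of miR-27 Tg, was left out. Without miR-27 Tg replicate 3 there were 3 calls. The change in cluster Tg was not called as different from the added changes of the 3 single transgenics for any of the 35 genes, and 1 gene over all genes tested was called (0.00901% lower, 0% higher). The median of that difference was -0.15 with a median SE of 0.51, so a departure from the sum of the size of most of these changes was not detectable. At an unadjusted p under 0.05, 1 of the 35 passed in limma, Ifitm3, at -1.71, where 4.81% of all genes passed.

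Loss and gain of the cluster were compared as well. Against DKO, cluster Tg was higher in 4 of the 35 genes, and lower in 0, with a median of 0.41, where 7.14% of all genes were higher and 4.2% lower. These were Ifitm3 at 1.55 (adjusted p = 0.0129), Oas1a at 1.09 (adjusted p = 0.0133), Lgals3bp at 0.85 (adjusted p = 0.0179) and Ifnar2 at 0.45 (adjusted p = 0.00987). The count was 1 without cluster Tg replicate 1 or without DKO replicate 1, and 7 without DKO replicate 3. Against miR-23 Tg, a comparison added after the values were seen, DKO was higher in 1 gene, Dhx58, at 0.89 (SE 0.13, adjusted p = 0.0161), where 0.036% of all genes were higher and 0.036% lower; that call was lost when any single miR-23 Tg library, DKO replicate 2 or DKO replicate 3 was left out. The 35 genes had a median of 0.69 there.

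Several libraries moved these counts. In cluster Tg against WT, 10 of the 35 genes were called without cluster Tg replicate 1, and 13 without WT replicate 2 or without WT replicate 3. In miR-27 Tg against WT, 13 were called without WT replicate 2, 15 without WT replicate 3, and 31 without miR-27 Tg replicate 3. The call held in all alternatives run for 9 of the 21 in cluster Tg, Dhx58, Ifit1, Ifit3, Ifitm3, Irf7, Mx2, Oas1a, Oasl2 and Rtp4. It held for 7 of the 23 in miR-27 Tg, Dhx58, Ifit1, Ifit3, Ifitm3, Isg15, Oas1a and Rtp4. Each other call was lost in at least 1 alternative, among them those that leave out a library of the genotypes compared.

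A pair of libraries stood apart, miR-27 Tg replicate 3 and DKO replicate 3. Their 80 ribosomal protein genes averaged 1346 and 941 RPKM, against 239.1 to 529.1 RPKM in the other 16 libraries. In miR-27 Tg replicate 3, 22 of the 35 genes lay below both other miR-27 Tg libraries, and these had a median transcript length of 3292.5 bases, while the 7 that lay above both had a median of 1773 bases. Bst2 stood 1.39 above the mean of the other two on the log2 scale and Isg15 0.68 above it, while Mx1 stood at -2.39 and Eif2ak2 at -2.04. In DKO replicate 3, the 23 genes above both other DKO libraries had a median length of 2181 bases and the 7 below both had 3909 bases. What this relation to length contributes to each gene's value was not tested. Without DKO replicate 3, the median of the 35 genes in DKO against WT was 0.32 in place of 0.49, and 27 in place of 23 genes had all DKO libraries above WT, where 7.94% of all genes did.

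**Figure D4:**
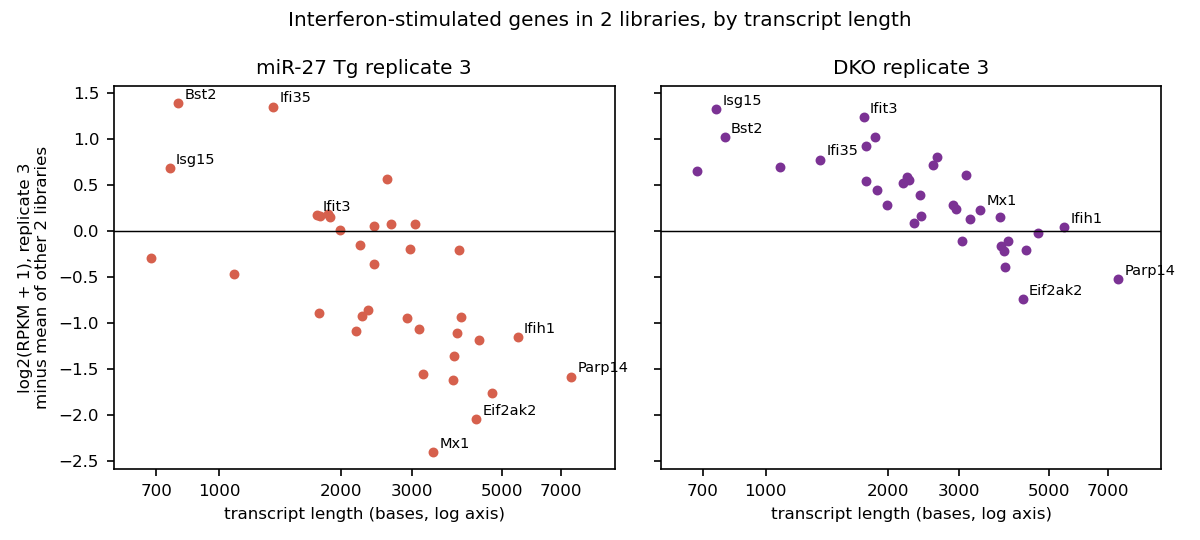
Log2(RPKM + 1) in replicate 3 minus the mean of the other 2 libraries of the same genotype, against transcript length in bases (log axis), for the 35 genes in miR-27 Tg and in DKO. Bst2 and Isg15, both short, lie above 0 in both panels and the long Parp14 and Eif2ak2 below it, while the short Ifitm3 and Isg20 lie below 0 in miR-27 Tg and above it in DKO.

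The rest of the interferon pathway was read from lists that were chosen with earlier results of these data known. The ligand genes of type I and type III interferon, 18 rows, were at or near 0 in these cells. Of these, 11 were listed at 0 in all 18 libraries, and the highest value of the 7 others, 0.747 RPKM, was that of Ifna7 in miR-27 Tg replicate 3, named after its value was seen. Ifng stood at 8.93, 4.902 and 2.45 RPKM in cluster Tg and 4.79, 0.991 and 2.22 RPKM in miR-27 Tg. Ifng had 4.02, 11.1 and 3.96 RPKM in miR-24 Tg, 0.633, 0.96 and 0.899 in miR-23 Tg, 0.476, 0.159 and 0.0359 in DKO and 0.483, 0.742 and 0.626 in WT. Ifng, the type II interferon, rose by 1.86 (adjusted p = 0.0129) in cluster Tg and 2.06 (adjusted p = 0.0150) in miR-24 Tg, and was at 1.05 (adjusted p = 0.144) in miR-27 Tg and -0.42 (adjusted p = 1) in DKO. In the receptor and JAK-STAT relay, none of the 6 genes outside the 35 was called in cluster Tg or miR-27 Tg against WT.

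Of 8 dampers of signalling, Usp18 was the 1 that rose in cluster Tg, and Usp18 and Socs1 rose in miR-27 Tg, Socs1 being named after its value was seen (0.79, adjusted p = 0.0377). In the ISG15 pathway of 5 genes, the conjugating enzyme Ube2l6 rose by 2.06 (adjusted p = 0.000257) in cluster Tg, 2.62 (adjusted p = 4.70e-05) in miR-27 Tg and 1.40 (adjusted p = 0.00726) in miR-24 Tg. Of 20 tested genes of nucleic acid sensing, 14 lay outside the 35. In cluster Tg, 5 of the 20 rose, 2 of them outside the 35, where 5.63% of all genes rose. These 2 were Samhd1 (0.60, adjusted p = 0.0103), which depletes nucleotides, and the endosomal RNA receptor Tlr7 (1.03, adjusted p = 0.0262). In miR-27 Tg, 5 of the 20 rose, 1 of them outside the 35, where 5.77% of all genes rose. A wider list of 51 tested interferon-stimulated genes outside the 35 had 6 rises in cluster Tg and 17 rises in miR-27 Tg. Over all genes, 5.63% and 5.77% rose there, and the medians of the list were 0.21 and 0.52. The list had 0 calls in miR-24 Tg, miR-23 Tg and DKO, where 2.32%, 0.00901% and 0% of all genes rose. Its medians there were 0.08, -0.10 and 0.18. The 6 in cluster Tg were Ms4a4c (1.74), Ifi27l2a (1.49), Slfn5 (1.22), Parp12 (1.18), Tor3a (0.93) and Trim34a (0.71). Of 27 tested genes that respond mainly to interferon gamma, 3 rose in cluster Tg, the GTPases Irgm2 (1.24), Iigp1 (1.23) and Gbp3 (1.19), 2 rose in miR-27 Tg and 2 in miR-24 Tg, and the medians were 0.30, 0.37 and 0.31, against 0.15 in DKO. These are 3, 2 and 2 of 27, where 5.63%, 5.77% and 2.32% of all genes rose.

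The sorted population was checked through its markers. The 10 naive CD4 T cell markers summed to 3805 to 6156 RPKM over the 18 libraries. Markers of other cells moved with some genotypes. The 12 B cell markers summed to 65.2 to 122 RPKM in cluster Tg, 122 to 695 RPKM in miR-27 Tg, 83.6 to 322 RPKM in miR-24 Tg, 24.2 to 82.2 RPKM in miR-23 Tg and 21.5 to 32.7 RPKM in DKO, against 16.2 to 25.7 RPKM in WT, and none was at 0 in any library. Of 10 tested, 10 rose in miR-27 Tg, 6 in miR-24 Tg, and 0 in cluster Tg, miR-23 Tg and DKO, with a median of 1.25 in cluster Tg and 0.02 in DKO. For these and the later marker counts, 5.63% of all genes rose in cluster Tg, 5.77% in miR-27 Tg and 2.32% in miR-24 Tg. The shares that fell were 2.85%, 3.18% and 1.26%. In miR-23 Tg and DKO, 0.00901% and 0% of all genes rose, so a count of 0 there says little about other cells. The 10 myeloid rows summed to 27.2 to 44.2 RPKM in cluster Tg, 43.6 to 71.8 RPKM in miR-27 Tg, 19.4 to 54.8 RPKM in miR-24 Tg, 12.4 to 15.8 RPKM in miR-23 Tg and 14.2 to 21.3 RPKM in DKO, against 12.05 to 21.4 RPKM in WT. Of 7 tested, 2 rose in cluster Tg (median 0.86), 5 in miR-27 Tg (median 1.90) and 1 in miR-24 Tg (median 1.27). In miR-23 Tg and DKO 0 rose, with medians of 0.22 and 0.08.

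Plasmacytoid dendritic cells are the body's main source of type I interferon, and 10 markers of theirs summed to 32.4 to 34.9 RPKM in cluster Tg, 31.7 to 75.5 RPKM in miR-27 Tg, 26.2 to 53.6 RPKM in miR-24 Tg and 28.6 to 32.97 RPKM in DKO, against 28.6 to 35.5 RPKM in WT. Their defining marker Siglech was listed at 0 in every DKO and WT library, and its highest value was 0.0309 RPKM in cluster Tg, 0.412 RPKM in miR-27 Tg and 0.487 RPKM in miR-24 Tg. Of 7 tested, Tcf4 and Runx2 rose and Pacsin1 fell in cluster Tg (median 0.91), Spib, Bcl11a and Ly6d rose and Pacsin1 fell in miR-27 Tg (median 0.90), Tcf4 rose and Pacsin1 fell in miR-24 Tg (median 0.73), and none was called in DKO; these genes were named after their values were seen. The 6 CD8 T cell markers summed to 86.9 to 157 RPKM in cluster Tg, 56.3 to 177 RPKM in miR-27 Tg, 131 to 137 RPKM in miR-24 Tg and 74.01 to 134 RPKM in DKO, against 75.6 to 87.6 RPKM in WT. Of the 6, 4 rose in cluster Tg (median 1.83), 4 in miR-27 Tg (median 1.71), 3 in miR-24 Tg (median 1.33) and 0 in DKO (median -0.08), Cd8a, Nkg7 and Gzmk in all 3 transgenics, and Ctsw fell in cluster Tg and miR-27 Tg. The 6 neutrophil rows summed to 13.5 to 674 RPKM in miR-27 Tg, 3.02 to 126 RPKM in miR-24 Tg, 0.210 to 6.20 RPKM in miR-23 Tg, and under 1 RPKM in each cluster Tg, DKO and WT library. S100a8 and S100a9, named after their values were seen, rose in miR-27 Tg. The 7 erythroid rows summed to 4.74, 341 and 594 RPKM in miR-27 Tg and up to 98.0 RPKM in miR-24 Tg, against at most 30.3 RPKM in WT, with 0 of 5 called. The 7 natural killer cell markers summed to 59.3 to 82.9 RPKM in miR-24 Tg, against 24.5 to 32.2 RPKM in WT. Klrd1 and Klrk1, also named after their values were seen, rose in miR-24 Tg. The part of these other cells in the rises of the 35 genes was not tested. Within miR-24 Tg, replicate 1 had both the highest B cell sum, 322 RPKM, and the highest average of the 35 genes, 0.33 above the WT mean. DKO replicate 3 also had the highest of both in its genotype, 32.7 RPKM and 0.71. In miR-27 Tg, replicate 3 had the highest B cell sum, 695 RPKM, and the lowest average, 0.77. Cluster Tg replicate 3 likewise had the highest sum, 122 RPKM, and the lowest average, 0.80. In miR-23 Tg and WT, the library with the highest B cell sum had the middle average. Myeloid sums were highest in replicate 1 of cluster Tg, 44.2 RPKM, and of miR-24 Tg, 54.8 RPKM, each with its genotype's highest average. The highest myeloid sum went with the lowest average in miR-27 Tg and DKO, and with the middle one in miR-23 Tg and WT. The highest CD8 sum went with the highest average in cluster Tg, miR-23 Tg, DKO and WT. In miR-24 Tg it went with the middle average and in miR-27 Tg with the lowest.

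**Figure D5:**
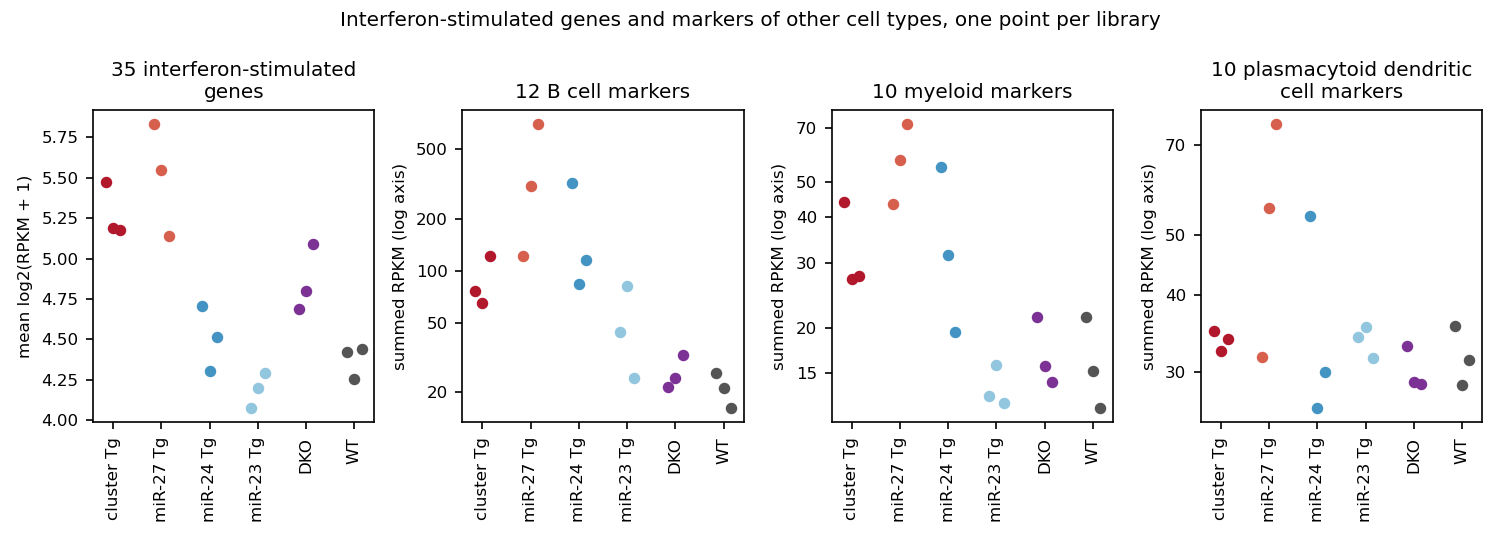
Mean log2(RPKM + 1) of the 35 genes, and summed RPKM (log axes) of the markers of B cells, myeloid cells and plasmacytoid dendritic cells, in each library (points) of the 6 genotypes. The miR-24 Tg libraries reach 322 RPKM in B cell markers and means of 4.30 to 4.70 for the 35 genes, and the DKO libraries reach 32.7 RPKM and means of 4.69 to 5.09, against 4.25 to 4.44 in WT.

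Promoter sequence was set beside these values because many of the 35 genes rose in the same genotypes. RefSeq (GRCm38.p6) promoters, 250 bases before to 50 bases after the start of transcription, were found for 27 of the 35. The core letters of the interferon-stimulated response element, GAAA followed by any 2 bases and a second GAAA, or on the other strand TTTC, any 2 bases and TTTC, occurred in 13 of the 27 (48.1%), against 1079 of 27025 genes (3.99%). The 35 were chosen by name as interferon-stimulated genes, which favours these letters, so that contrast does not bear on the rises. The letters occurred in 11 of the 21 genes with a promoter that were called in cluster Tg or miR-27 Tg (52.4%). They also occurred in 2 of the 6 that were called in neither (33.3%), too few genes to compare. The windows below are those of the 8 genes called in cluster Tg that hold a match, in the direction of the gene, with the fixed letters of the match in capitals. In the windows of Oas1a and Irgm1, a pair of matches overlap.
Ifit1, chr19:34640777-34640802, plus strand: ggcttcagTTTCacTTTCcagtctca
Ifit3, chr19:34583365-34583390, plus strand: gtggtaagTTTCacTTTCctcttctg
Ifitm3, chr7:141010725-141010750, minus strand: aaattcagGAAAagGAAActtctgag
Oas1a, chr5:120907525-120907550, minus strand: ctcggGAAAtgGAAActGAAAatcta
Ifih1, chr2:62646206-62646231, minus strand: agagaatcGAAAcaGAAAccgatctg
Rsad2, chr12:26456555-26456580, minus strand: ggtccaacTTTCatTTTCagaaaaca
Stat2, chr10:128270268-128270293, plus strand: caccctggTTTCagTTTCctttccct
Irgm1, chr11:48871430-48871455, minus strand: ttcaaGAAAtaGAAAccGAAActgat
Each window marks the first match of its promoter, with any match that overlaps it. This first match starts 104 bases before the transcription start in Ifit1, 156 before in Ifit3, 20 before in Oas1a and 30 before in Irgm1. In Ifih1 it starts 32 bases after the transcription start. A further match, not marked above, starts 85 bases before the transcription start in Ifit1, 122 before in Ifit3 and 19 after in Ifitm3. A match of letters is a description of the sequence and does not show that a factor binds there.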

How the data were processed

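The authors deposited 1 table of RPKM values, with 18 columns of libraries. STAR 2.2.0c, HOMER and the build mm9 stand in the submitters' processing notes. The sources used here give no gene models, counting rule or strand setting, so paralogs that share reads (Ifit, Oas and Mx genes) are uncertain. Absolute depth is unknown; relative depth, read from the steps of low values, spanned 0.634 to 1.467 times WT replicate 1.

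Values were tested as log2(RPKM + 1), which understates changes of low genes, with lmFit and a trended eBayes from limma 3.58.1 (R 4.3.3). All 18 libraries entered one fit with genotype as the term, over the 11099 genes that reached 1 RPKM in 3 or more libraries, and p-values were adjusted by Benjamini-Hochberg over all of them. Of a repeated symbol, the row with the highest mean was kept. The fit was tested on simulated data. The genes and lists were chosen with earlier results of these data known. Values per library are given for the 12 genes with the largest F and for the receptor chains, Stat2, Irf9, Irf7 and Usp18. Other genes of the lists are named where called in cluster Tg or DKO against WT. List genes named outside that rule were picked with their values seen. Transcript lengths are those of the longest coding GENCODE M21 transcript. Alternatives changed the pseudocount, filter, scaling, libraries and variance trend, or added the replicate number as a block. Some genes are not reported here.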

Additional observations from a re-analysis of the deposited data

How the results depend on the processing

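The calls rest on 3 libraries a genotype, an unknown absolute depth, and a design that cannot go below p = 0.1 in an exact permutation test of 3 libraries against 3. Pseudocounts of 0.1 and 0.5, no filter, a filter at 5 RPKM, median-ratio scaling and no variance trend left all counts of called genes within 1.5 times, and under quantile normalisation only cluster Tg against miR-27 Tg moved, to 0. With both miR-27 Tg replicate 3 and DKO replicate 3 left out, the counts were 4 in miR-24 Tg against WT (2 higher, 2 lower), 19 in cluster Tg against DKO, 28 in cluster Tg against miR-24 Tg, 9 in cluster Tg against miR-27 Tg (1 higher, 8 lower), 32 in miR-27 Tg against miR-24 Tg and 5 in DKO against miR-23 Tg. With only the 6 libraries compared in the fit, which leaves fewer degrees of freedom, the counts were 7 in miR-27 Tg against WT, 2 in miR-24 Tg against WT, 8 in cluster Tg against DKO, 0 in cluster Tg against miR-27 Tg and 0 in miR-27 Tg against miR-24 Tg. Deviations of same-numbered libraries correlated at r = -0.11 to 0.58 over 35 pairs, 12 of them over 0.1; miR-27 Tg and DKO, which were not compared here, had all 3 pairs over 0.1 (0.21, 0.29 and, for replicate 3, 0.58), and no compared genotypes with 3 pairs did, so the numbers were not taken to pair the libraries. With the replicate number as a block, over the 16 libraries with a number of their own, 19 genes were called in cluster Tg against WT, 19 in miR-27 Tg against WT, 10 in cluster Tg against miR-23 Tg, 0 in cluster Tg against miR-27 Tg, 0 in DKO against miR-23 Tg and 18 over the 6 genotypes. Each library of the genotypes compared was left out in turn, while libraries of other genotypes, which share the estimate of spread, stayed in. This gave 10 to 18 calls in cluster Tg against WT, 13 to 31 in miR-27 Tg against WT, and 0 in each of miR-24 Tg, miR-23 Tg and DKO against WT. For cluster Tg it gave 1 to 7 against DKO, 15 to 20 against miR-23 Tg, 2 to 8 against miR-24 Tg and 0 to 3 against miR-27 Tg. It gave 14 to 30 in miR-27 Tg against miR-24 Tg and 0 to 1 in DKO against miR-23 Tg. With any library outside DKO left out, 0 were called against the sum. With any of the 18 libraries left out, 21 to 32 were called over the 6 genotypes. Receptor values in DKO against WT changed sign: Ifnar2, at 0.02, was at -0.00849 under quantile normalisation and from -0.0543 (without WT replicate 3) to 0.0747 with 1 library left out, and Ifnar1, at -0.08, ranged from -0.152 to 0.0497, the highest value being that without DKO replicate 3, alone or with miR-27 Tg replicate 3. In cluster Tg against WT, quantile normalisation called 564 of 1175 genes higher, against 625 of 941, with 21 of the 35 higher in both. The cause of these changes was not tested.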
